A study of Mus musculus with 6 samples.

Results

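Histone deacetylases are described here through 10 genes, Hdac1, Hdac2, Hdac3, Hdac4, Hdac5, Hdac6, Hdac7, Hdac8, Hdac9 and Hdac11. They were read by 23 of the 56605 probes, and are 10 of the 36870 gene names, on 2-colour Agilent mouse expression arrays. Every probe that the array design assigns to one of these names was taken, with control spots left out. The family was chosen because Hdac9 was lower with tamoxifen on all arrays, so the Hdac9 ratios are a description and carry no test. As the other members were measured in the same contrast, no p is given for them either. Hdac10 was not analysed here.

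The samples were lung tumors of C57BL/6J mice with the genotype Ror1f/f; CAG-CreER; SPC-hEGFRdel746-750, which both groups share. CAG is a broadly active promoter, so the tamoxifen-inducible Cre is not limited to tumor cells, while the mutant human EGFR is driven from the SPC promoter of the surfactant protein C gene, a gene of alveolar type 2 cells. In one group 3 samples came from mice given tamoxifen, and in the other 3 came from mice given corn oil, each over 4 weeks between 16 and 20 weeks of age, with the tumor taken at 20 weeks. No sample here came from mice given tamoxifen without the floxed allele or without the Cre, so an effect of the drug and an effect of recombination cannot be told apart. Whether samples of different number are separate animals, or pools, is not stated in the labels, so p-values measure only the spread between these samples, which may in part be technical. In each group the sex-linked signals given below differed between samples, so the 3 samples of a group do not all come from the same animal or pool.

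Histone deacetylases remove acetyl groups from lysines of histones and of many other proteins, and they act against the acetyltransferases. Hdac1, Hdac2, Hdac3 and Hdac8 form class I, zinc-dependent enzymes of the nucleus, of which all but Hdac8 work inside large corepressor complexes. Hdac4, Hdac5, Hdac7 and Hdac9 form class IIa: they have weak catalytic activity of their own, bind and repress the transcription factors of the MEF2 family, and leave the nucleus when kinases phosphorylate them and 14-3-3 proteins bind. Hdac6, of class IIb, is a cytoplasmic deacetylase of tubulin, and Hdac11 is the single member of class IV. Hdac9 occurs as a long form with the deacetylase domain and as a short form without it, known as Mitr or HDRP, names that RefSeq lists as synonyms of Hdac9.

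Samples of like number, a tamoxifen and an oil one, formed a couple that shared 2 arrays with exchanged dyes, which makes 6 arrays in 3 couples. A level below is the normalized log2 signal of a sample, averaged over its 2 arrays, and a ratio is the log2 of tamoxifen over oil averaged over the 2 arrays of a couple. A level depends on the probe, so levels are compared between samples and never between probes. Ratios are given as mean ± SD over the 3 couples. In each channel of each array 51.8% to 58.8% of probes stood well above background, and 31277 probes were bright enough to be tested. Precision is limited by the 3 couples, as the 2 arrays of a couple hold the same samples. The SE that limma gave over tested probes had a median of 0.094 (log2). Over these probes the dye orientations of a couple correlated with r of 0.73 to 0.76, and different couples with r of -0.03 to 0.18, where probes are not independent replicates. Ror1, the floxed gene, had a ratio of 0.40 ± 0.21 (limma, adjusted p = 0.695). Its levels were 9.35, 9.30 and 9.17 in tamoxifen samples 1, 2 and 3, against 8.77, 8.86 and 8.99 in oil samples 1, 2 and 3. It was higher with tamoxifen on all 6 arrays, as were 6.05% of tested genes, so no loss of Ror1 was seen at this probe. The labels do not say whether the probe lies in the deleted part, so directions are those of samples labelled tamoxifen. Alveolar type 2 markers, 9 in all, were bright enough to be tested without exception.

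Couple 1 stood apart in sex-linked signal. Xist, expressed from the inactive X chromosome of females, had levels of 6.62, 9.09 and 6.08 in tamoxifen samples 1, 2 and 3, against 8.74, 8.99 and 5.98 in oil samples 1, 2 and 3. The Y-linked gene Eif2s3y had levels of 9.73, 6.20 and 10.70 in the tamoxifen samples, against 6.01, 6.07 and 10.07 in the oil samples. Couple 1 thus set a tamoxifen sample with Y-linked signal against an oil sample with Xist signal, while the samples within couple 2 and within couple 3 were alike. Over all 19 tested deacetylase probes, leaving out couple 1 turned the sign of Hdac5, of Hdac11 and of 2 Hdac4 probes near 0, and the values without couple 1 are given with each gene below.

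Hdac9 has 6 probes, all on the minus strand of chromosome 12 (mm9), spread over 387 kb. In gene order they fall into 3 at the 5′ side, which the array design ties to the short-form transcript NM_024124 or to the Ensembl transcript ENSMUST00000211632, and 3 at the 3′ side, tied to the longer transcript NM_001271386. The sequences of 2 probes are shown because they stand for these parts of the gene: the first lies in sequence that both transcripts share, and the second in the part that only the long form has, which codes for a stretch of the deacetylase domain. They are the 60-base probes of the array design, at chr12:35074257-35074316 and chr12:34792084-34792143 on the minus strand (mm9), printed 5′ to 3′ in lower case with no base marked.
Probe A_51_P204031, shared by both transcripts: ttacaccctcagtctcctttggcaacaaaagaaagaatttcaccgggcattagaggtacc
Probe A_55_P2065074, long form: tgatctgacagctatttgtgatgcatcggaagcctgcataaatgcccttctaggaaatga

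Hdac9 signal was lower in all 3 tamoxifen samples at every probe that could be tested, by 1.32-fold to 1.69-fold. Of the 6 probes 4 were tested: the 3 at the 5′ side and the last one at the 3′ end. The other 2, both specific to the long form, were not well above background in any tamoxifen or oil reading.

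The brightest Hdac9 probe, A_55_P1970755, lies at the 3′ end of the short transcript (chr12:35056405-35056464). Its levels were 7.53, 7.43 and 7.62 in tamoxifen samples 1, 2 and 3, against 8.39, 8.09 and 8.36 in oil samples 1, 2 and 3. As linear signals these are 184.8, 172.0 and 196.7 in the tamoxifen samples and 335.5, 272.1 and 329.5 in the oil samples. The groups did not overlap, and the lowest oil sample stood well above the highest tamoxifen sample. The ratios were -0.86, -0.66 and -0.75 in couples 1, 2 and 3, and their mean was -0.76 ± 0.10 (SD over 3 couples), 1.69-fold lower with tamoxifen. With tamoxifen in Cy5 the arrays of couples 1, 2 and 3 gave -0.62, -0.43 and -0.58, and with tamoxifen in Cy3 they gave -1.10, -0.90 and -0.91. Every array was below 0, and the dye orientation with tamoxifen in Cy3 gave the lower value in each couple. Without couple 1 the mean was -0.70.

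The probe nearest the 5′ end, A_55_P2733412 (chr12:35119285-35119344), had levels of 6.92, 6.95 and 7.13 in tamoxifen samples 1, 2 and 3, against 8.04, 7.56 and 7.57 in oil samples 1, 2 and 3. Here the oil 1 sample was clearly the highest, and the groups again did not overlap. The ratios were -1.12, -0.61 and -0.44 in couples 1, 2 and 3, averaging -0.72 ± 0.35 (SD, n = 3 couples). This SD was in the upper part of the range, at percentile 87.4 of all tested probes, and without couple 1 the mean was -0.52. The mean was -0.965 with tamoxifen in Cy5 and -0.474 with tamoxifen in Cy3, a dye gap at percentile 98.3 of all tested probes. At the brightest Hdac9 probe the gap ran the other way, at percentile 97.1.

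The shared coding probe A_51_P204031, printed above, had levels of 6.50, 6.53 and 6.44 in the tamoxifen samples, against 6.99, 6.87 and 6.86 in the oil samples. Its ratios of -0.48, -0.34 and -0.42 in couples 1, 2 and 3 averaged -0.42 ± 0.07 (SD, n = 3 couples), 1.33-fold lower with tamoxifen, or -0.38 without couple 1. Of its readings, 5 of 6 for tamoxifen and 6 of 6 for oil were well above background. The couples were close to one another and the groups were apart.

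The 3′-most probe of the gene, A_55_P2497024 (chr12:34732448-34732507), is tied to the long transcript. Its levels were 6.77, 6.61 and 6.62 in the tamoxifen samples, against 7.21, 6.83 and 7.15 in the oil samples. The ratios were -0.44, -0.22 and -0.53 in couples 1, 2 and 3, averaging -0.40 ± 0.16 (SD, n = 3 couples), and without couple 1 the mean was -0.38. The oil 2 sample was the lowest of its group and lay close to the tamoxifen 1 sample, without overlap. The oil 1 sample was the highest oil sample at all 4 tested Hdac9 probes.

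The 2 probes inside the long form were dim. The deacetylase-domain probe A_55_P2065074, printed above, had levels of 6.12, 6.14 and 6.09 in the tamoxifen samples and 6.04, 6.13 and 6.13 in the oil samples. The probe A_51_P255467 (chr12:34735842-34735901) had 6.00, 5.98 and 6.12 in the tamoxifen samples and 6.10, 5.96 and 6.17 in the oil samples. Neither passed the background flag in any reading, so no fold can be read from them in either direction. Their ratios in the scanner software's own scale were -0.34 ± 0.30 and -0.68 ± 0.61 (SD, n = 3 couples), from signals at background. Apart from the shared probe, the long form was read only by its 3′ end probe.

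**Figure D1:**
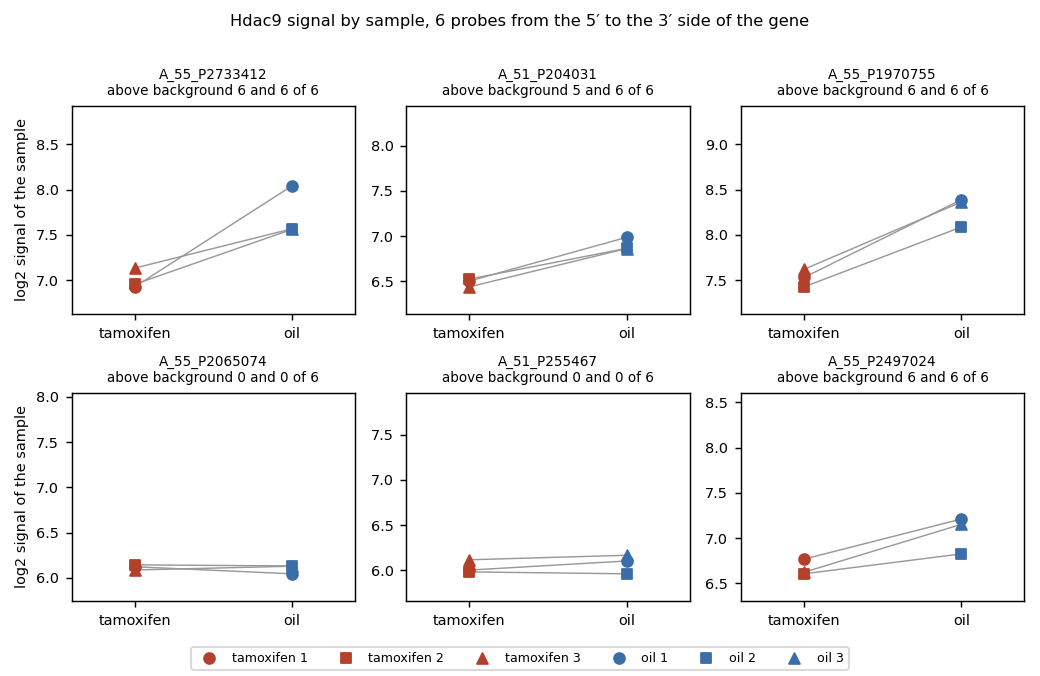
Normalized log2 signal of each Hdac9 probe in the 3 tamoxifen samples and the 3 oil samples, one panel per probe; points are samples, lines join the samples of a couple, panel titles count tamoxifen and oil readings above background, and each panel spans the same log2 range. At the 4 tested probes the tamoxifen samples lie below the oil samples, and at the 2 probes not well above background the groups mix.

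The size of the Hdac9 ratio depended on how background was handled, where an offset of 50 was added to both channels. With an offset of 16 and all else kept, the 4 tested probes gave -0.92, -0.64, -0.89 and -0.57 in order from the 5′ to the 3′ end. In the scanner software's own log ratio, which differs in background subtraction and dye normalization as well as in having no such offset, they gave -1.18 ± 0.51, -1.25 ± 0.25, -1.07 ± 0.11 and -0.95 ± 0.39 in the same order (SD, n = 3 couples). On that scale the probes lay closer together than the offset ratios of -0.72, -0.42, -0.76 and -0.40. The distances of these probes from the 5′-most one were 0, 45.0, 62.9 and 386.8 kb. On the scanner's scale the means ran from -1.25 to -0.95. That span was smaller than the SD of the 5′-most probe (0.51), the largest of these SDs. It was larger than the SDs of A_51_P204031 (0.25) and A_55_P1970755 (0.11).

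**Figure D2:**
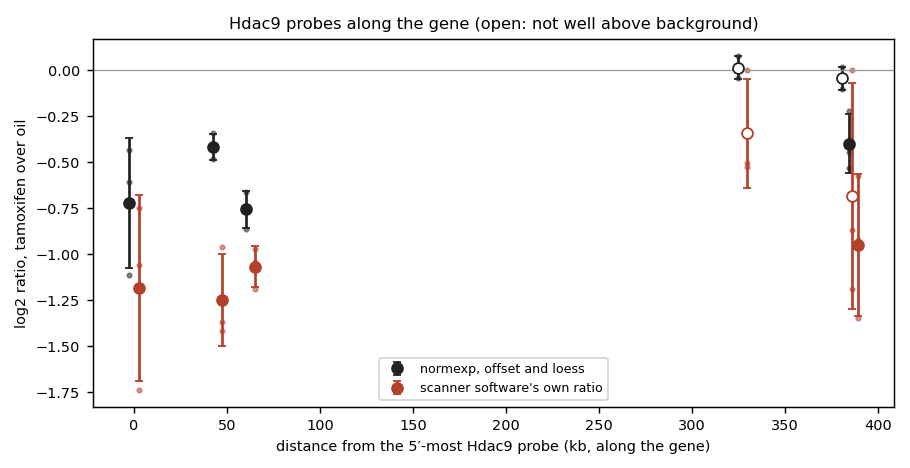
Ratio of tamoxifen over oil (log2) of the 6 Hdac9 probes against distance from the 5′-most probe in kb, with the offset ratio in black and the scanner software's ratio in red, drawn slightly apart; large points are means, bars the SD over 3 couples, small points the couples, and open points probes not well above background. The 4 tested probes are below 0 on both scales and lie closer together on the scanner's scale.

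Set beside the whole array, Hdac9 was low but not at the extreme. Of the 31277 tested probes 0 passed limma at an adjusted p under 0.05 (0%), 2184 had an unadjusted p under 0.05 (6.98%), 2182 were lower on all 6 arrays (6.98%) and 1754 were higher on all 6 (5.61%). Likewise, the 3 tamoxifen levels were all below the 3 oil levels for 2182 probes (6.98%), which shares 1262 probes with those lower on all arrays, and all above them for 1577 (5.04%). Of the 19 tested deacetylase probes 4 were lower on all 6 arrays, the Hdac9 probes, and these were also the 4 whose tamoxifen levels all lay below the oil levels. Higher on all 6 arrays were 2, and 3 had tamoxifen levels all above the oil levels, as given below by gene. Since Hdac9 chose the family, nothing is read from its share. Among all tested probes the ratio of the brightest Hdac9 probe was at rank 127 from the lowest.

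The other 9 deacetylases had ratios nearer to 0 than Hdac9. Their 15 tested probes had ratios between -0.06 and 0.28 with a median of 0.05, of which 3 were below 0, against a median of -0.005 over all tested probes, which ran from -2.02 to 3.38. The 2 untested probes, one each of Hdac4 and Hdac11, were well above background in at most 2 of 6 readings of a group.

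**Figure D3:**
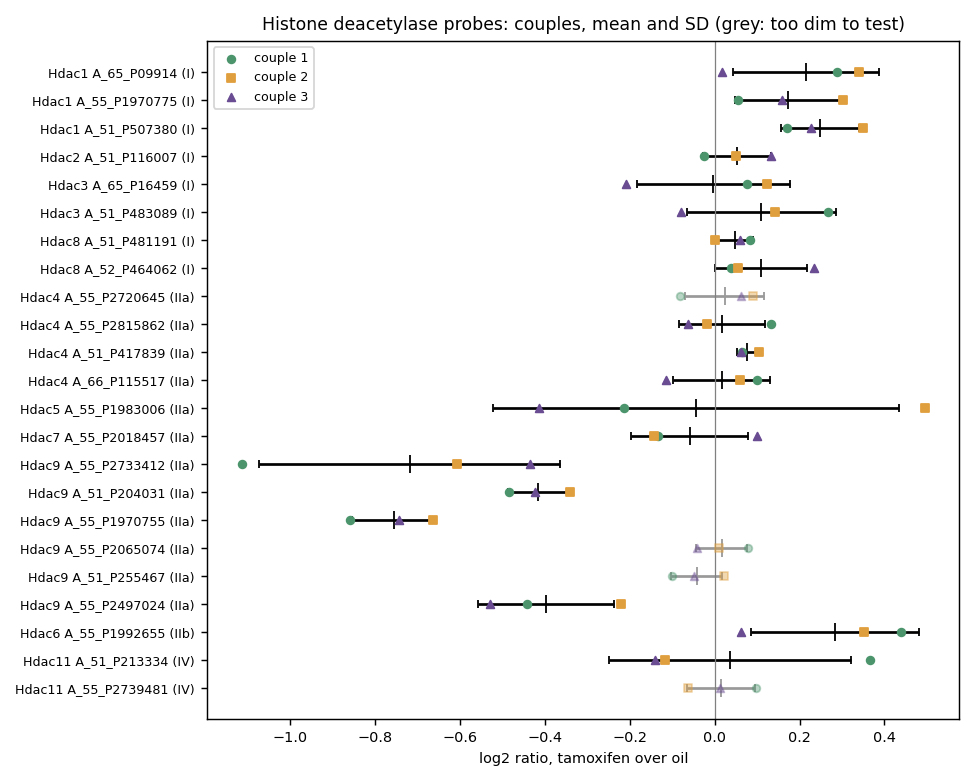
Ratio of tamoxifen over oil (log2) of all 23 deacetylase probes by gene and class; coloured points are the 3 couples, the vertical tick is their mean, the bar is the SD, and faded rows are the 4 probes too dim to test. The 4 tested Hdac9 probes lie below 0 in every couple, and the other 15 tested probes have means between -0.06 and 0.28.

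Of class I, Hdac1, a catalytic subunit of the NuRD, Sin3 and CoREST corepressor complexes, was read a little higher with tamoxifen by all of its 3 probes. The brightest, A_55_P1970775 (chr4:129193374-129193433, mm9), had levels of 12.97, 13.14 and 13.12 in tamoxifen samples 1, 2 and 3, against 12.92, 12.84 and 12.96 in oil samples 1, 2 and 3. Its ratios were 0.05, 0.30 and 0.16 in couples 1, 2 and 3, averaging 0.17 ± 0.13 (SD, n = 3 couples), or 0.23 without couple 1. The tamoxifen levels lay just above the oil levels, by a margin smaller than the spread within either group. The probe A_65_P09914 (chr4:129194655-129194714) had levels of 11.09, 11.02 and 10.95 in the tamoxifen samples, against 10.80, 10.68 and 10.94 in the oil samples, a ratio of 0.22 ± 0.17 that came from the arrays with tamoxifen in Cy3 (0.41) and not from those with tamoxifen in Cy5 (0.02). Without couple 1 it was 0.18.

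The third Hdac1 probe, A_51_P507380, was higher with tamoxifen on all 6 arrays. Its levels were 11.55, 11.66 and 11.68 in the tamoxifen samples, against 11.37, 11.31 and 11.46 in the oil samples, and its ratios of 0.17, 0.35 and 0.23 averaged 0.25 ± 0.09 (SD, n = 3 couples), or 0.29 without couple 1. The array design places it on chromosome 17, from 78892656 to 78892726 (mm9), and RefSeq lists the pseudogene Hdac1-ps on that chromosome. Signal from Hdac1 and from its pseudogene cannot be told apart at this probe.

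Hdac2, the close paralog of Hdac1 in the same complexes, had levels of 6.85, 6.91 and 6.98 in the tamoxifen samples, against 6.88, 6.86 and 6.85 in the oil samples. The groups overlapped, and the ratio was 0.05 ± 0.08 (SD, n = 3 couples), or 0.09 without couple 1. Hdac3, the catalytic subunit of the NCoR and SMRT complexes, had levels of 9.46, 9.22 and 9.17 in the tamoxifen samples, against 9.19, 9.08 and 9.25 in the oil samples at its brighter probe, with a ratio of 0.11 ± 0.18, or 0.03 without couple 1. Its dimmer probe was at 0.00 ± 0.18, or -0.04 without couple 1, and the couples of both probes went to both sides of 0. Hdac8, an X-linked enzyme that deacetylates the cohesin subunit Smc3, had levels of 6.90, 6.85 and 6.99 in the tamoxifen samples, against 6.86, 6.79 and 6.75 in the oil samples at probe A_52_P464062, with a ratio of 0.11 ± 0.11, or 0.15 without couple 1. Its other probe was at 0.05 ± 0.04, or 0.03 without couple 1. The dim probes of these genes had larger SDs in the scanner software's ratio. There Hdac2 was at 0.12 ± 0.13 and the dimmer Hdac3 probe at -0.03 ± 0.44. Hdac8 was at 0.24 ± 0.32 at A_52_P464062 and at 0.17 ± 0.08 at its other probe.

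Of class IIa beside Hdac9, Hdac4 had the most even couples at its brightest probe. This probe (chr1:93829554-93829613, mm9) had levels of 8.55, 8.45 and 8.48 in tamoxifen samples 1, 2 and 3, against 8.48, 8.34 and 8.42 in oil samples 1, 2 and 3. The ratios of 0.07, 0.11 and 0.06 averaged 0.08 ± 0.02 (SD, n = 3 couples), an SD at percentile 2.1 of all tested probes, while the groups overlapped, and without couple 1 the mean was 0.08. The other 2 tested Hdac4 probes were both at 0.02, and turned to -0.04 and -0.03 without couple 1.

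Hdac5, a regulator of muscle and vessel genes, had the highest SD of the tested members in the offset ratios. This ranking depended on the scale. In the scanner software's ratio the SD of Hdac5 was 0.46, below 0.72 at the tested Hdac11 probe and 0.51 at Hdac9 probe A_55_P2733412. Its levels were 12.59, 13.29 and 12.54 in tamoxifen samples 1, 2 and 3, against 12.80, 12.79 and 12.95 in oil samples 1, 2 and 3. The tamoxifen 2 sample was the highest of all and the other tamoxifen samples were the lowest, so that the ratios of -0.21, 0.50 and -0.41 averaged -0.04 ± 0.48 (SD, n = 3 couples). This SD lay at percentile 93.8, and the mean turned to 0.04 without couple 1. Of the marker and partner lists, 4 had medians of the same signs over the couples. These were alveolar macrophage markers, with list medians of -1.06, 0.19 and -0.43 in couples 1, 2 and 3 (11 of 11 tested and 10 below 0 by their mean, with a summed linear signal of 68100 to 262700 in tamoxifen samples and 116600 to 207100 in oil samples). The others were neutrophil markers (-0.01, 0.53 and -0.04; 20930 to 28410 in tamoxifen samples and 27950 to 28300 in oil samples), genes that MEF2 regulates (-0.15, 0.04 and -0.35) and the sirtuins (-0.004, 0.01 and -0.06). The neutrophil sum is mostly Csf3r, singled out after its values were seen, with ratios of -0.48, -0.12 and -0.04 in couples 1, 2 and 3. Of the 5 tested neutrophil markers it was the only 1 below 0 by its mean. The part of these lists in the Hdac5 values was not tested.

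Hdac7, known from endothelial cells and thymocytes, gave opposite signs by dye. With tamoxifen in Cy5 the arrays of couples 1, 2 and 3 were at 0.33, 0.32 and 0.55, and with tamoxifen in Cy3 they were at -0.60, -0.61 and -0.36. The dye orientations differed by 0.92 on average, at percentile 99.7 of all tested probes, whose median gap was 0.11. Averaged over both dyes the ratio was -0.06 ± 0.14 (SD, n = 3 couples), or -0.02 without couple 1, with levels of 12.06, 12.12 and 12.10 in the tamoxifen samples and 12.19, 12.27 and 12.00 in the oil samples. The groups overlapped, and a reading from one dye orientation alone would have given Hdac7 a direction that the other reverses.

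**Figure D4:**
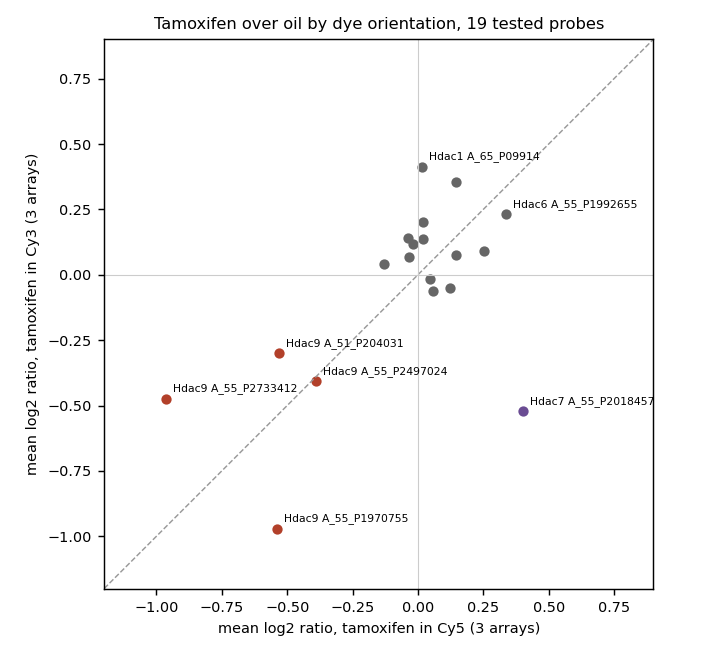
Ratio of tamoxifen over oil (log2) on arrays with tamoxifen in Cy5 against that on arrays with tamoxifen in Cy3, as means over 3 couples, for the 19 tested deacetylase probes; the dashed line marks equal values. The 4 Hdac9 probes lie below 0 on both axes, and Hdac7 lies at 0.40 with tamoxifen in Cy5 and -0.52 with tamoxifen in Cy3.

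Of the remaining classes, Hdac6, the tubulin deacetylase, was higher with tamoxifen on all 6 arrays. Its levels were 10.55, 10.31 and 9.98 in tamoxifen samples 1, 2 and 3, against 10.12, 9.96 and 9.92 in oil samples 1, 2 and 3 (chrX:7507249-7507308, mm9). The ratios were 0.44, 0.35 and 0.06 in couples 1, 2 and 3, averaging 0.28 ± 0.20 (SD, n = 3 couples), the highest of the family. The tamoxifen 3 sample lay below the oil 1 sample, so the groups overlapped. Hdac6 is X-linked and couple 1 differed in sex-linked signal, and without couple 1 its mean was 0.21. Hdac11, which removes long-chain fatty acyl groups from lysines, had levels of 7.14, 6.53 and 6.62 in the tamoxifen samples, against 6.78, 6.65 and 6.76 in the oil samples. Only the tamoxifen 1 sample stood out, and the ratios of 0.37, -0.12 and -0.14 averaged 0.04 ± 0.29. Without couple 1 the Hdac11 mean turned to -0.13. In the scanner software's ratio this Hdac11 probe was at 0.07 ± 0.72 over all couples.

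Promoter windows were read to see what the genes share in sequence. RefSeq (GRCm38.p6) gave 12 windows of 250 bases upstream of a start for 8 of the 10 genes, with Hdac1 and Hdac3 not in the table used. Both Hdac9 windows were poor in CpG pairs, which are dense in most housekeeping promoters, with 0 and 2, while the windows of the other 7 genes held 5 to 27. The median over 32841 promoters was 6, and 7.9% of them held as few as the first Hdac9 window and 29.0% as few as the second. They are printed 5′ to 3′ on the minus strand, with each CG in capitals.
Hdac9, chr12:34917096-34917345 (GRCm38.p6): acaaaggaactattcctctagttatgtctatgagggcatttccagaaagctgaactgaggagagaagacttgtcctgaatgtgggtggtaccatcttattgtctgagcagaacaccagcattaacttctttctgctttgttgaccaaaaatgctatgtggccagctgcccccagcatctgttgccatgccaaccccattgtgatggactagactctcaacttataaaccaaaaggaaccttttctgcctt
Hdac9, chr12:34528890-34529139 (GRCm38.p6): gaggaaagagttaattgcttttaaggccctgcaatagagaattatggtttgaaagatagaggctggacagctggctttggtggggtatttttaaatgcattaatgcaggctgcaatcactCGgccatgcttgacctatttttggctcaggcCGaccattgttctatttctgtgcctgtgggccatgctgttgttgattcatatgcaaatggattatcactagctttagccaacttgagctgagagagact

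The core of the HIF element, ACGTG, searched on both strands, was in 16.6% of all promoters and in the Hdac6 window among the members. The core GCGTG was in 28.2% of promoters and in windows of Hdac6, Hdac7 and Hdac11. The MEF2 motif was in 2.9% of promoters and in the Hdac5 window. None of the 3 was found in the Hdac9 windows, which says only that these letters are not there.

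Genes of the corepressor complexes that hold the class I enzymes had ratios between -0.24 and 0.26. For genes other than the members the brightest probe stood for the gene, giving 20543 tested genes, of which 7.83% had an unadjusted p under 0.05, 7.21% were lower on all 6 arrays and 6.05% were higher on all 6. No gene passed the adjusted test, with 0 of 20543 called. In the NuRD complex 4 of 12 tested genes were below 0 (median 0.04), with Gatad2a at -0.15 ± 0.09, Gatad2b at -0.12 ± 0.05 and the methyl-CpG binding protein gene Mbd2 at 0.08 ± 0.02. In the Sin3 complex 7 of 13 were below 0 (median -0.02), with the scaffold gene Sin3a at 0.18 ± 0.07 and Ing2, a reader of methylated histone H3, at -0.24 ± 0.20. In the CoREST complex 3 of 10 were below 0 (median 0.10), with the zinc finger gene Zmym2 at 0.26 ± 0.08, and in the NCoR and SMRT complex 0 of 5 (median 0.08), with Gps2 at 0.13 ± 0.10. The median of all tested genes was -0.004. The genes named here were picked for having the same sign on all 6 arrays, and their adjusted p was 0.695 to 0.825 (limma).

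The partner lists of class IIa had medians between -0.10 and -0.05. MEF2 factors were below 0 in 2 of 4 (median -0.06, but 0.004 without couple 2). Mef2a, a member of the family that class IIa enzymes repress, had levels of 10.96, 11.09 and 10.97 in tamoxifen samples, against 11.31, 11.28 and 11.39 in oil samples, a ratio of -0.32 ± 0.12 (limma, adjusted p = 0.695; SD, n = 3 couples). Its tamoxifen levels all lay below its oil levels. It was lower on all 6 arrays, and the same sign on all arrays was the rule by which it was named. Genes that MEF2 regulates were below 0 in 5 of 5 (median -0.10), between -0.17 and -0.06, and 0 of them had an unadjusted p under 0.05.

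The kinases that phosphorylate class IIa enzymes were below 0 in 9 of 14 tested of 16 (median -0.06), with 3 at an unadjusted p under 0.05. These were the salt-inducible kinase genes Sik1 at -0.31 ± 0.14 and Sik2 at -0.29 ± 0.13, and the protein kinase D gene Prkd3 at -0.26 ± 0.07 (limma, adjusted p = 0.695 each; SD, n = 3 couples). Of the 14 tested kinases, the same 3 were lower on all 6 arrays and 0 were higher. The 14-3-3 proteins, which hold phosphorylated class IIa enzymes in the cytoplasm, were below 0 in 4 of 7 (median -0.05, but 0.004 with median centring in place of loess and 0.006 without couple 1), and the sirtuins, the NAD-dependent deacetylases, in 4 of 7 (median -0.02).

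Acetyltransferases, the enzymes that deacetylases oppose, were below 0 in 3 of 13 (median 0.04), with Kat2a at 0.28 ± 0.27 and Kat8 at -0.29 ± 0.20. Bromodomain proteins, which bind acetylated lysine, were below 0 in 4 of 9 (median 0.00). Among them Brd7, a subunit of a SWI/SNF chromatin remodelling complex, had levels of 13.61, 13.96 and 13.88 in tamoxifen samples, against 14.14, 14.32 and 14.29 in oil samples, a ratio of -0.43 ± 0.10 (limma, adjusted p = 0.695). Brd7 was named by the rule of the same sign on every array, so the shared sign at its brightest probe follows from that choice. Its tamoxifen levels all lay below its oil levels, as was so for 6.98% of all tested probes. All 5 of its tested probes were lower on every array, but they read the same RNA on the same arrays and are not separate results. Known substrates of Hdac6, Hdac8 and Hdac11 were below 0 in 4 of 9 (median 0.01), with Shmt2, a serine hydroxymethyltransferase gene, at 0.22 ± 0.06 and Cttn, which encodes cortactin, at -0.23 ± 0.13. The 4 genes named here without an adjusted p had one of 0.695 to 0.699 (limma).

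**Figure D5:**
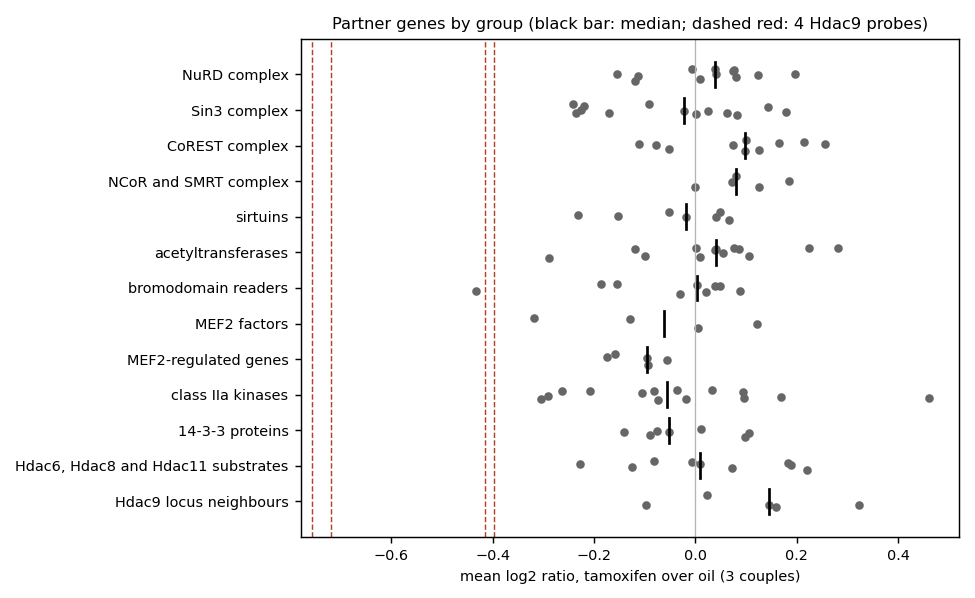
Ratio of tamoxifen over oil (log2) of the tested genes in each partner list of the deacetylases, points being genes (means over 3 couples), black bars the list medians and dashed red lines the 4 tested Hdac9 probes. The class IIa kinases and MEF2 lists have medians of -0.06 to -0.10, and the class I corepressor complexes medians of -0.02 to 0.10.

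Neighbours of Hdac9 on chromosome 12 were looked up as well. Of 10, 5 were tested and 1 of these was below 0 (median 0.15), with ratios between -0.10 and 0.32 and 0 at an unadjusted p under 0.05. Twist1, a transcription factor of mesenchyme, and Ferd3l, both singled out after their values were seen, were not well above background in any reading.

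Among 20533 other tested genes, those whose 6 array ratios were most like those of the brightest Hdac9 probe were chosen by the smallest root mean square difference. They were Sult2b1, a sulfotransferase of cholesterol (0.11), Lox, which crosslinks collagen and elastin (0.18), Lpin2, a phosphatidate phosphatase (0.19), the homeobox gene Pbx3 (0.19) and the transcript AK042676 (0.20), against a median difference of 0.81 over all genes compared. Their mean ratios were -0.74 ± 0.04, -0.63 ± 0.03, -0.68 ± 0.08, -0.68 ± 0.19 and -0.69 ± 0.22 (SD, n = 3 couples). As these genes were picked for the smallest difference, their closeness and their ratios follow from that choice. The median over all genes is given for scale only and is no test of likeness.

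In bulk tumor RNA, fewer cells of a type and less RNA per cell cannot be told apart, and the lists of markers of 4 cell types had medians below 0 in every couple, as Hdac9 was. Alveolar type 2 markers had 8 of 9 genes below 0, with list medians of -0.21, -0.32 and -0.23 in couples 1, 2 and 3 and a summed linear signal of 592900 to 596200 in tamoxifen samples, against 708900 to 741700 in oil samples. Fibroblast and matrix markers had 6 of 7 below 0 (-0.13, -0.38 and -0.22 in couples 1, 2 and 3; 14780 to 24420 in tamoxifen samples and 17510 to 27230 in oil samples). Markers of heart muscle were below 0 in 7 of 7 (-0.13, -0.25 and -0.05 in couples 1, 2 and 3, with a summed signal of 1519 to 1687 in tamoxifen samples and 1604 to 2576 in oil samples). Ciliated cell markers had 3 of 4 below 0 (-0.23, -0.05 and -0.12; 9073 to 9903 in tamoxifen samples and 10410 to 11770 in oil samples). Gene by gene, the tamoxifen levels all lay below the oil levels for 4 of 9 type 2 markers, 1 of 7 fibroblast and matrix markers, 1 of 7 heart muscle markers and 1 of 4 ciliated cell markers. Over all tested probes this share was 6.98%, and in lists this short a count of 1 says little about the list. The ciliated sum is nearly all Mcidas, singled out after its values were seen, with levels of 13.10, 13.21 and 13.22 in tamoxifen samples, against 13.32, 13.28 and 13.48 in oil samples, and the other 3 tested ciliated markers overlapped between the groups. The brightest Hdac9 probe was at -0.86, -0.66 and -0.75 in the same couples. Of these lists Dpt, Pln, Dnah5 and Ccdc39 were not bright enough to be tested. Their part in the Hdac9 values was not tested.

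The other marker lists did not share that sign pattern. T and NK cell markers had 0 of 8 below 0 (median 0.17), B and plasma cell markers 1 of 6 (0.15), endothelial markers 0 of 8 (0.09), neutrophil markers 1 of 5 (0.15) and proliferation genes 0 of 8 (0.24). Smooth muscle markers had 6 of 6 below 0 (median -0.09), erythroid markers 4 of 4 (-0.14), club cell markers 5 of 6 (-0.15), monocyte and dendritic cell markers 6 of 9 (-0.02) and alveolar type 1 markers 3 of 7 (0.04).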

How the data were processed

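Tumor RNA, 50 ng per labelling per the labels, was measured in 3 tamoxifen and 3 oil samples on 6 arrays. The deposited scanner files hold the mean foreground and median background intensity of each spot in each channel, not normalized, per the file headers. These deposited files also carry flags and the software's own log10 ratio (Cy5 over Cy3, background-subtracted and dye-normalized). Per the submitters' processing notes the software was Agilent Feature Extraction 12.0.3.1. A deposited table with a column per array has log2 ratios, Cy5 over Cy3. Set against the log10 ratio, its slope was 3.32 to 3.33 on every array, so scale and direction are known. A slope does not show whether a constant was added. For couples 1, 2 and 3 the column medians of that table were 0.14, -0.14 and -0.06 (Cy5 tamoxifen arrays) and 0.13, -0.15 and -0.01 (Cy3 tamoxifen arrays). The columns were thus not centred to a median of 0.

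The intensities were corrected by normexp with an offset of 50 over 62976 spots and loess-normalized within arrays in limma 3.58.1 under R 4.3.3, with 3671 control spots at weight 0 and then removed. Between 89 and 132 outlier spots per array were left out, none of them of a member, and 0 were saturated. Sample levels come from the channels after loess and Aquantile normalization. To be tested, a probe needed 2 or more couples in which both arrays were well above background in the tamoxifen channel, or likewise in the oil channel, and 5 were dropped for a missing spot. Couple means were tested against 0, two-sided, with limma and Benjamini-Hochberg adjustment over all 31277 probes at 0.05. The script was checked on simulated data. All arrays lie on the same slide, so no batch was tested. Accessions matched RefSeq (GRCm38.p6) for 23464 of 36870 gene names, and others kept the name in the files. Probe positions are on mm9.

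The members and all lists were chosen with earlier results of these data known. All members are named with every probe. Of each partner list, up to 3 tested genes of the same sign on all 6 arrays are named, by smallest unadjusted p, and the 5 genes most like Hdac9. Alternatives changed the background correction, normalization, dye orientation, filter, probe choice, replicate block and couples.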

Additional observations from a re-analysis of the deposited data

How the results depend on the processing

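The count of 0 probes past the adjusted test held in 15 of 17 alternatives. With the replicate block, which fits 6 arrays and takes the couple as random, 75 probes passed (22 higher, 53 lower), and with the channels apart as 3 tamoxifen against 3 oil samples 1 did, the Cox6a2 probe. None of these was a deacetylase probe (0 of 19 in both fits). As only 75 and 1 of all 31277 tested probes passed, nothing is read from that 0. Leaving out 1 couple in turn gave a count of 0 each time. The number at an unadjusted p under 0.05 lay between 1443 (brightest probe per gene) and 3843 (no filter on dim probes), against 2184 as reported. The brightest Hdac9 probe, at -0.76, was below 0 in all 17 alternatives. It was at -0.89 with a normexp offset of 16, -1.07 in the scanner software's ratio and in the deposited table, -0.54 with tamoxifen in Cy5 only and -0.97 with tamoxifen in Cy3 only, and between -0.80 and -0.70 with 1 couple left out. The other 3 tested Hdac9 probes kept their sign under 16 alternatives each, from -1.25 to -0.30. All 3 Hdac1 probes (0.02 to 0.41) and Hdac6 (0.21 to 0.40) stayed above 0. Hdac7 turned to 0.40 with tamoxifen in Cy5 only, and Hdac5 lay between -0.31 and 0.14 over 17 alternatives, with the sign turned in 4. Of 28 partner and marker lists, 11 had a median that turned sign in at least 1 alternative. Among them were NuRD (-0.04 without couple 1), Sin3 (0.02 with tamoxifen in Cy5 only), MEF2 factors (0.004 without couple 2), 14-3-3 proteins (0.006 without couple 1), bromodomain readers (lowest -0.06), club (0.33 without couple 1), erythroid (0.52 without couple 3), alveolar type 1 (-0.26 without couple 3) and neutrophil markers (-0.06 without couple 2). The causes were not tested. Probes not well above background limit what can be said of the Hdac9 long form. Samples of the same number deviated together with r of 0.09, 0.15 and 0.16 for couples 1, 2 and 3. With samples of another number the highest r was 0.05, 0.09 and 0.004. Samples of the same number share 2 arrays, so their common deviation may in part be technical.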
